A study of Mus musculus with 14 samples.

Results

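Mouse embryonic stem cells carrying fluorescent reporters for 2 microRNA clusters were compared after 3 days in FGF and activin with the same line before the change of medium. The comparison covers every gene with a mean of at least 1 CPM (counts scaled to the size of the library) over the 2 libraries, which left 13489 of the 37620 genes in the count files. The lowest mean among the genes kept was 1.00 CPM and the highest among those left out was 0.999 CPM. In the F/A day 3 group, cells were seeded sparsely in N2B27 medium containing 20 ng/ml of activin A and bFGF, at a dose the descriptions do not give, and harvested after 3 days. The untreated day 0 group was kept in serum and leukemia inhibitory factor (LIF) with vitamin C at 100 µM. Both groups are C57BL/6 cells with red mCherry tied to the mir-290 cluster and green eGFP to the mir-302 cluster. Both libraries are described as cells positive for the 2 reporters (yellow), although no sorting step is named, and RNA was extracted with Trizol. Each group is 1 library, so no test is possible between them. Differences are therefore given as log2 ratios of F/A day 3 over untreated day 0 with 95% intervals that cover counting error only, and a ratio is called past 2-fold when it is at least 1 in size. The 2 libraries differ at once in growth factors, serum, LIF, vitamin C, plating density and time, and these cannot be told apart. In RNA pooled from many cells, fewer cells expressing a gene and less RNA per cell cannot be told apart either.

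A second experiment, called experiment B here, gives a replicated comparison from other libraries of the same reporter cells. Its F/A group spent 5 days in N2B27 medium containing 12 ng/ml of bFGF and 20 ng/ml of activin A. Its VitC/LIF group had serum, LIF and vitamin C at 500 µM, which is the medium closest to that of day 0. There are 2 libraries of each, and nothing says whether they came from separate cultures. The p-values thus measure only the spread between libraries, estimated over all 10 libraries of experiment B. Below, rose and fell are used only of experiment B, for genes with an adjusted p under 0.05 in edgeR's quasi-likelihood test. Of the 13228 genes in both comparisons, 27.4% rose and 26.4% fell, the shares to set beside the list counts below. Of those at least 2-fold higher at day 3, 73.2% rose, and of those at least 2-fold lower, 68.9% fell. A further single library, F/A day 5, comes from the same series of harvests as day 3 and is quoted for its levels.

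Mouse embryonic stem cells in LIF resemble the naive epiblast of the blastocyst before implantation. FGF and activin carry them towards the state of the epiblast after implantation, in which naive transcription factors are silenced, Oct4 is kept, and genes for gastrulation become inducible. The mir-290 and mir-302 clusters make microRNAs that repress cell cycle inhibitors. The first cluster is active from the naive state on, and the second is switched on towards the primed state, which is what the 2 reporters were built to show.

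The mature sequences show why the clusters are read together, since a microRNA pairs with its targets mainly through its seed, bases 2 to 8, set in capitals here.
mmu-miR-302b-3p: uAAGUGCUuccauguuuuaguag
mmu-miR-302d-3p: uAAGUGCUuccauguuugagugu
mmu-miR-291a-3p: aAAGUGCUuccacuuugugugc
mmu-miR-294-3p: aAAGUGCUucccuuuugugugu
mmu-miR-295-3p: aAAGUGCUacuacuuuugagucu
mmu-miR-290a-3p: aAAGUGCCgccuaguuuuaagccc
mmu-miR-293-3p: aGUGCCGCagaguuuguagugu
The first 5 share the seed AAGUGCU, miR-302b and miR-302d from the mir-302 cluster (chr3:127545275-127545297 for miR-302b, plus strand) and miR-291a, miR-294 and miR-295 from the mir-290 cluster (chr7:3218968-3218989 for miR-291a, plus strand). The seeds of miR-290a (AAGUGCC) and miR-293 (GUGCCGC) differ from it. So do those of miR-302c (AGUGCUU) and miR-367 (AUUGCAC) of the mir-302 cluster and miR-291b (AAGUGCA) of the mir-290 cluster, whose full sequences are not printed here. Sequences and positions are from RefSeq on build GRCm38.p6. Reads on the 7 hairpin genes of the mir-290 cluster summed to 52 at F/A day 3 and 145 at untreated day 0, a log2 ratio of -1.60 (95% counting interval -2.08 to -1.13). The 5 hairpin genes of the mir-302 cluster summed to 50 and 46 reads, a log2 ratio of 0.00 (-0.61 to 0.61). Standard RNA libraries do not capture mature microRNAs, so these reads say nothing of the mature molecules. The mir-302 hairpins also lie within Larp7 on the opposite strand, and the strand setting of the counting is not stated. Larp7 itself had 3895 counts at F/A day 3 and 2117 at untreated day 0.

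Of the 13489 genes, 2101 (15.6%) were at least 2-fold higher at F/A day 3 and 1699 (12.6%) at least 2-fold lower, while 9689 lay within 2-fold. The median log2 ratio was -0.01. Past 4-fold there were 980 higher and 725 lower genes, and past 16-fold 293 higher and 193 lower. Total counts were 35626817 at F/A day 3 and 34149515 at untreated day 0. At this depth the median width of a gene's counting interval was 0.30 on the log2 scale, and 1.36 for genes with a mean between 1 and 2 CPM. Many of the differences were between a measurable level and nearly none, since 742 of the higher genes had under 1 CPM at untreated day 0 and 465 of the lower genes had under 1 CPM at F/A day 3. Such genes, also on the lists below, passed the filter of 1 CPM only through the library in which they were higher.

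**Figure D1:**
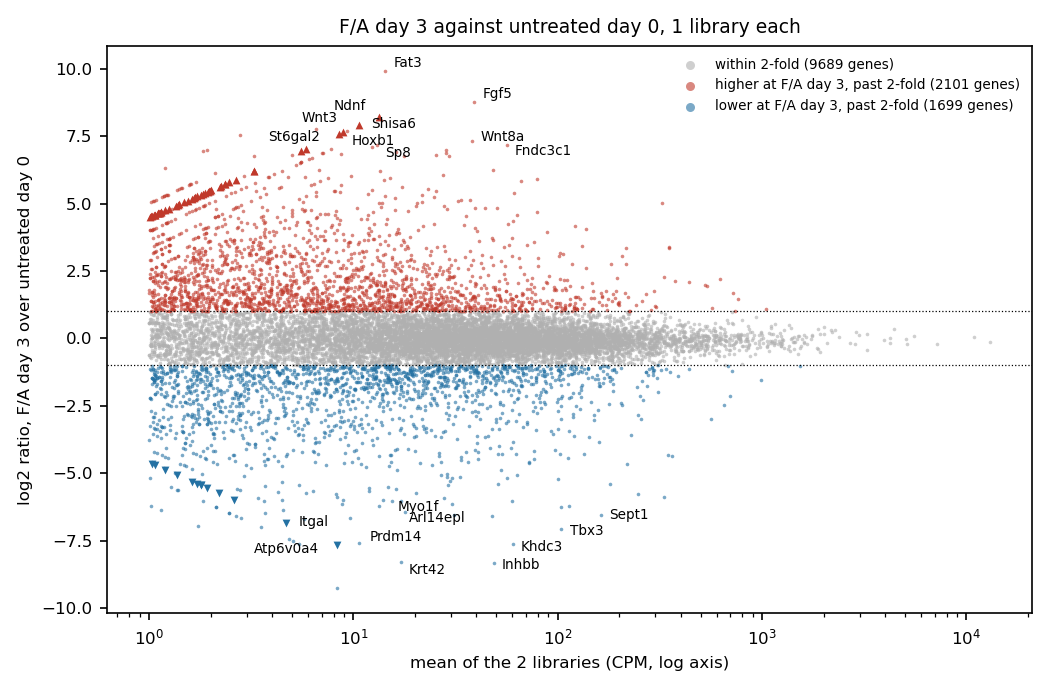
Each point is a gene, with its mean over the F/A day 3 and untreated day 0 libraries in CPM on a log axis and its log2 ratio of F/A day 3 over untreated day 0. Dotted lines mark 2-fold, triangles mark genes without a count in 1 library at their bound against 3 counts, and the 2101 higher and 1699 lower genes fan out most where the mean is low.

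Among genes with a symbol, at least 16 CPM in the higher library and no predicted gene or pseudogene, the 10 highest were led by Fat3, Fgf5, Ndnf and Shisa6. Fgf5 (ENSMUSG00000029337), the FGF ligand that marks the epiblast after implantation, had 2856 counts at F/A day 3 and 6 at untreated day 0. That is 78.0 against 0.178 CPM, a 438-fold difference, and F/A day 5 stood at 121 CPM. Fat3, an atypical cadherin, had 1046 counts against 1, a log2 ratio of 9.91 (7.43 to 15.22). No count of Hoxb1 was seen at untreated day 0, against 653 at F/A day 3, which makes this homeobox gene of the posterior embryo at least 200-fold higher when 3 counts are set for the empty library. On the same rule Ndnf, a secreted neurotrophic factor, with 980 counts against 0, was at least 301-fold higher. The AMPA receptor partner Shisa6 had 779 counts against 0 and the sialyltransferase St6gal2 621 against 0. The ligand Wnt3, which is required for gastrulation, had 682 counts against 3, a log2 ratio of 7.71 (6.16 to 9.99). Wnt8a (7.32), the zinc finger factor Sp8 (7.19) and Fndc3c1 (7.18) completed the 10. All of them except Ndnf rose in experiment B. Ndnf was not called there, with 0.761 and 0.750 CPM in F/A against 0.442 and 0.405 CPM in VitC/LIF (adjusted p = 0.252).

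The 10 lowest genes held 2 naive transcription factors beside several genes that are better known in germ cells or blood cells. Inhbb (ENSMUSG00000037035), which encodes the subunit of activin B, had 11 counts at F/A day 3 and 3270 at untreated day 0, or 0.300 against 96.9 CPM. It was thus 323-fold lower while activin A was supplied in the medium. Prdm14, a repressor of FGF signalling and DNA methylation in naive cells, had 4 counts against 715 (log2 ratio -7.60, -9.48 to -6.24). Tbx3, a T-box factor downstream of LIF, had 57 counts against 6978 (-7.05, -7.46 to -6.68). Khdc3, a component of the maternal complex of oocytes and early embryos, had 22 against 4046 (-7.64). Atp6v0a4, a proton pump subunit, had no count at F/A day 3 against 562, at least 203-fold lower. Krt42 (-8.28), the leukocyte integrin Itgal (-6.65), Arl14epl (-6.59), the septin gene Sept1 (-6.56) and the myosin gene Myo1f (-6.56) were the others. All 10 were also called lower in experiment B.

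Naive pluripotency factors were nearly all lower at day 3. Of 21 on the list, 18 were at least 2-fold lower, none was higher, and the median log2 ratio was -4.60, beside -0.01 over all genes. Esrrb (ENSMUSG00000021255), an orphan nuclear receptor of the naive network, had 11.1 CPM at F/A day 3 and 653 CPM at untreated day 0, 58.6-fold lower. Klf4 had 3.06 against 225 CPM, and the junction protein gene Jam2 2.67 against 204 CPM. Zfp42 (Rex1) stood at 16.5 against 421 CPM and Dppa3 (Stella) at 3.82 against 13.3 CPM. The 3 members within 2-fold were Nanog, Gbx2 and Tdgf1. Nanog had 206 CPM at F/A day 3 and 407 CPM at untreated day 0, a log2 ratio of -0.98 (-1.02 to -0.94), just short of 2-fold. Tdgf1, the Nodal co-receptor Cripto, had 1366 against 947 CPM (0.53, 0.51 to 0.55), and the homeobox gene Gbx2 had 35.8 against 27.1 CPM (0.40). In experiment B, 20 of the 21 fell and none rose, Tdgf1 and Gbx2 among those that fell. Klf5 alone was not called there.

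Genes controlled by LIF through STAT3 were lower as well, and LIF is absent from the F/A medium. Of 16 members, 10 were at least 2-fold lower and none was higher, with a median of -2.57. Klf4, Tfcp2l1, Klf5 and Gbx2 are also on the naive list, so 4 of the 16 members, and 3 of the 10 lower ones, are counted on both. Tfcp2l1 had 8.93 CPM at F/A day 3 and 487 CPM at untreated day 0 (log2 ratio -5.77). The feedback inhibitor Socs3 had 7.92 against 145 CPM (-4.19), and Stat3 itself 12.6 against 123 CPM (-3.28). Bcl3 had 0.737 against 39.6 CPM (-5.75). The LIF receptor gene Lifr had 11.2 against 88.1 CPM, whereas its partner Il6st lay within 2-fold at 109 against 155 CPM. The survival factor Mcl1 was nearly level at 607 against 587 CPM. For 7 of the 16, F/A day 5 was more than 2-fold above day 3, among them Klf4 at 27.3 CPM, Socs3 at 28.0 CPM and Stat3 at 39.1 CPM. In experiment B 13 members fell and 1, Il6st, rose.

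Pou5f1 (ENSMUSG00000024406), the gene of Oct4, had 958 CPM at F/A day 3 and 1166 CPM at untreated day 0, a log2 ratio of -0.28 (-0.30 to -0.26). Sox2 (ENSMUSG00000074637), its partner, was 3.92-fold lower, with 126 against 492 CPM, and stood at 34.6 CPM at F/A day 5. Of 16 core members 10 lay within 2-fold, 2 were higher and 4 lower. The 2 higher ones were the RNA-binding proteins that block let-7 maturation, Lin28a at 776 against 357 CPM (1.12) and Lin28b at 151 against 29.9 CPM (2.33, 2.24 to 2.43). Dppa5a had 257 against 1129 CPM at untreated day 0 (-2.14), and the threonine dehydrogenase gene Tdh, a mark of mouse embryonic stem cell metabolism, 1.04 against 13.2 CPM (-3.67). Sall4, at -1.23, was the other lower member.

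Dppa2 and Dppa4, which encode a pair of chromatin proteins that act together on developmental and germline promoters, were still near their starting level at day 3. Dppa2 had 103 CPM at F/A day 3 and 149 CPM at untreated day 0 (-0.54), and Dppa4 had 107 against 174 CPM (-0.69). At F/A day 5 they stood at 0.662 and 4.72 CPM. Both also fell in experiment B, Dppa2 with 0.254 and 0.350 CPM in F/A against 83.5 and 72.7 CPM in VitC/LIF.

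Genes of the primed epiblast were mostly higher. Of 24 listed, 23 were measured at 1 CPM or more, and 16 were at least 2-fold higher against 1 lower, with a median log2 ratio of 1.68. Besides Fgf5 and Wnt8a, the highest were Sall2, a zinc finger factor, with 155 against 2.55 CPM (5.93, 5.62 to 6.25), and Cdh2, N-cadherin, with 39.8 against 1.21 CPM (5.04, 4.59 to 5.52). Sox3 had 22.2 against 1.04 CPM and the receptor gene Epha1 129 against 11.6 CPM. Dnmt3b, the methyltransferase most strongly linked to the primed state, had 1101 against 344 CPM (1.68, 1.65 to 1.71), more than at F/A day 5 (487 CPM). Otx2, a homeobox factor that directs the exit from the naive state, had only 26.3 against 23.6 CPM (0.16, 0.02 to 0.29). Etv4, at -1.04, was the 1 lower member, and Etv5 (-0.70), Foxd3 (-0.29) and Dnmt3a (-0.26) were also below their starting level. In experiment B 18 of the 23 rose, Otx2 among them, and 4 fell, namely these last 4 genes. Pou3f1 was listed with no count in any of the 4 single libraries, whereas in experiment B it had 74.8 and 94.7 CPM in F/A against 29.6 and 34.5 CPM in VitC/LIF, with 1.91% of its estimated count from reads unique to the gene. Its level at day 3 is therefore not known from these counts.

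**Figure D2:**
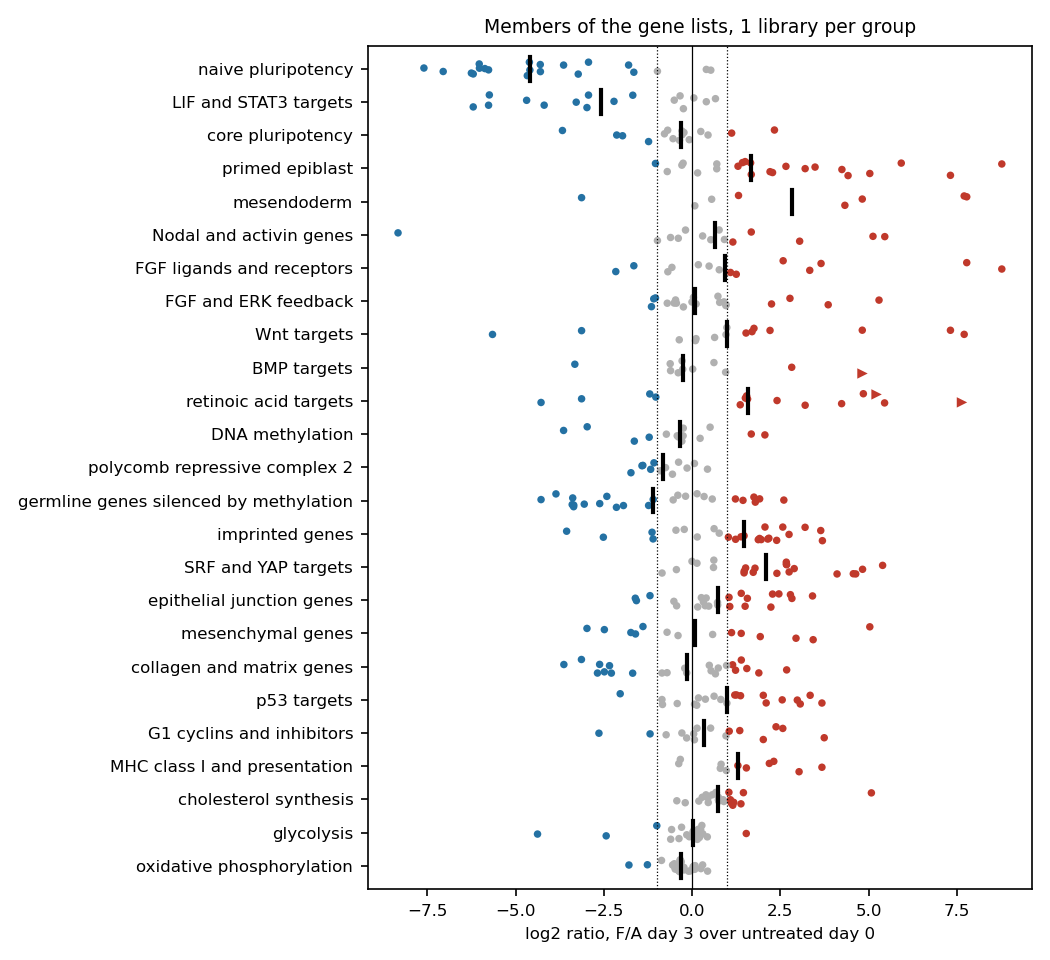
Each point is a member of a gene list at its log2 ratio of F/A day 3 over untreated day 0 (1 library each), coloured where past the dotted 2-fold lines, with arrowheads at the bound for members without a count at untreated day 0 and a black bar at the median. Naive factors sit at a median of -4.60 and primed epiblast genes at 1.68, while glycolysis, at 0.04, lies close to the median of all genes.

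Activin and Nodal signal through the same receptors and SMAD factors, and Lefty1, Lefty2 and Nodal are among their direct targets. Here 5 of the 14 measured members were higher and 1, Inhbb, was lower. Lefty1 (ENSMUSG00000038793), a secreted antagonist of Nodal, had 13562 counts at F/A day 3 and 1511 at untreated day 0, or 370 against 44.8 CPM (3.05, 2.97 to 3.13). It stood at 85.5 CPM at F/A day 5. In experiment B it fell instead, with 20.2 and 22.6 CPM in F/A against 127 and 116 CPM in VitC/LIF (log2 fold change -2.50, SE 0.15, adjusted p = 5.55e-06), and the groups did not overlap. Its neighbour in function, Lefty2, lay within 2-fold at day 3 with 42.1 against 47.9 CPM (-0.19). In experiment B Lefty2 fell by 3.85 on the log2 scale (adjusted p = 1.87e-07). Fst, the follistatin that binds activin, had 72.4 against 2.07 CPM (5.13, 4.78 to 5.49), and it rose in experiment B. Skil (1.68) and Foxh1 (1.15) were also higher, and Nodal itself had 79.4 against 46.7 CPM (0.77, 0.68 to 0.86). Cer1, Gsc and Mixl1, targets of strong Nodal signalling in the primitive streak, stayed under a mean of 1 CPM, as did Inhba and Bmper.

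Among the FGF genes, Fgf4, the ligand of naive cells, had 76.7 CPM at F/A day 3 and 241 CPM at untreated day 0 (log2 ratio -1.65), while Fgf5, Fgf8, Fgf13 and Fgf15 were higher. Fgf8, a ligand of the primitive streak, had 478 counts against 2, a log2 ratio of 7.78 (5.92 to 10.83). Fgf15 had 32.6 against 3.23 CPM (3.33, 3.05 to 3.63), and only 2.05 CPM at F/A day 5. Among the receptors, Fgfr2 (2.58) and Fgfr1 (1.09) were higher and Fgfr4 (-2.16) was lower. In all, 7 of 14 ligands and receptors were higher and 2 lower.

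Feedback genes of the FGF and ERK pathway were split. Of 20 measured, 4 were higher, 3 lower and 13 within 2-fold, with a median of 0.08. The higher ones were Fgfbp1, which releases FGFs from the matrix, with 27.9 against 0.711 CPM (5.30), the ERK phosphatases Dusp4 with 27.9 against 1.93 CPM (3.86) and Dusp6 with 317 against 46.4 CPM (2.77), and the receptor antagonist Il17rd with 323 against 67.9 CPM (2.25). Against these, Spry4 (-1.09), Etv4 (-1.04) and Dusp14 (-1.15) were lower. The immediate early gene Egr1 was level at 101 against 101 CPM. The same 4 higher genes also rose in experiment B, where 11 members rose and 2 fell. Of the 3 lower genes, Etv4 fell there, Spry4 was not called, and Dusp14 rose (1.13, adjusted p = 0.000767).

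Of 15 measured Wnt target genes and ligands, 7 were higher, 2 lower and 6 within 2-fold. Axin2, the most general feedback target of the canonical pathway, had 15.9 against 8.06 CPM (0.98) and so fell short of 2-fold. Lef1, a nuclear partner of beta-catenin, had 90.6 against 19.6 CPM (2.21). Notum, an enzyme that inactivates Wnt ligands, was the lowest member with 0.464 against 23.4 CPM (-5.66, -6.44 to -4.97). BMP targets were mixed, with 2 of 11 higher and 1 lower. The ligand gene Bmp4 had 1.99 against 19.9 CPM (-3.32), while the inhibitor of differentiation Id2 had 29.6 against 4.18 CPM (2.82) and Id1 12.3 against 18.9 CPM (-0.62). Msx1 had 92 counts against 0.

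Few mesendoderm genes were measured at all. Of 23 genes, 15 stayed under a mean of 1 CPM, among them Mesp1, Tbx6, Foxa2, Sox17 and Gata6, and none of these exceeded 1.97 CPM in either library. Of the 8 measured, 5 were higher: Fgf8, Wnt3, T, Nkx1-2 and Eomes. Cdx1 was the 1 lower member, with 0.710 against 6.22 CPM (-3.13, -3.78 to -2.54), and it fell in experiment B. The 5 with under 1 CPM at untreated day 0, namely T, Fgf8, Wnt3, Nkx1-2 and Mesp2, were counted only through their level at F/A day 3. T (brachyury, ENSMUSG00000062327), the T-box factor of the primitive streak, had 20.1 CPM at F/A day 3 and 0.711 CPM at untreated day 0 (4.82, 4.24 to 5.47). F/A day 5 stood at 848 CPM. In experiment B T rose, with 308 and 345 CPM in F/A against 0.331 and 0.405 CPM in VitC/LIF (9.77, SE 0.22, adjusted p = 6.16e-08). Eomes had 12.8 against 5.16 CPM (1.31, 1.06 to 1.57), with 72.9 CPM at F/A day 5, and Nkx1-2, of the caudal epiblast, 10.1 against 0.504 CPM (4.33). Hhex was level (8.38 against 7.94 CPM).

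Targets of retinoic acid, the vitamin A derivative that patterns the trunk, were also divided. Of 15 measured, 11 were higher and 4 lower, and none lay within 2-fold. The 5 with under 1 CPM at untreated day 0 were counted only through their level at F/A day 3. The 1 with under 1 CPM at F/A day 3 was counted only through its level at untreated day 0. The filter thus favoured the direction of these members. The higher group held Hoxb1, Hoxb2 (122 counts against 0) and the homeobox factor Meis2 with 85.6 against 2.96 CPM (4.85, 4.57 to 5.15). The lower group was led by Stra8, the meiotic entry gene, with 6.14 against 119 CPM (-4.28). The enzymes that degrade retinoic acid, Cyp26a1, Cyp26b1 and Cyp26c1, stayed under a mean of 1 CPM. At F/A day 5, 10 of the 15 stood more than 2-fold below day 3, for example Meis2 at 27.0 CPM.

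A set of genes was higher at day 3 than on either side of it. By a rule added after the values had been seen, 13 genes had at least 16 CPM at F/A day 3 and stood at least 4-fold above both untreated day 0 and F/A day 5. Lefty1 had the highest CPM of them. Ndnf was the sharpest, at 26.7 CPM against 0 CPM at untreated day 0, and F/A day 5 stood at 0.0903 CPM. Insm1, a zinc finger factor of neuroendocrine cells, had 24.0 against 0.533 CPM and F/A day 5 1.77 CPM. Pax6, of the early neural plate and eye, had 18.2 against 2.04 CPM, with 2.74 CPM at F/A day 5. The cannabinoid receptor gene Cnr1 had 24.5 against 0.178 CPM, the chemokine gene Cxcl12 47.2 against 2.52 CPM and the insulin receptor substrate gene Irs4 17.1 against 0.326 CPM. The others were Fgf15, Slc27a2, Fam171b, Myb, En2 and Tmc5. Each level rests on 1 library, and the spread between cultures at day 3 is unknown.

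**Figure D3:**
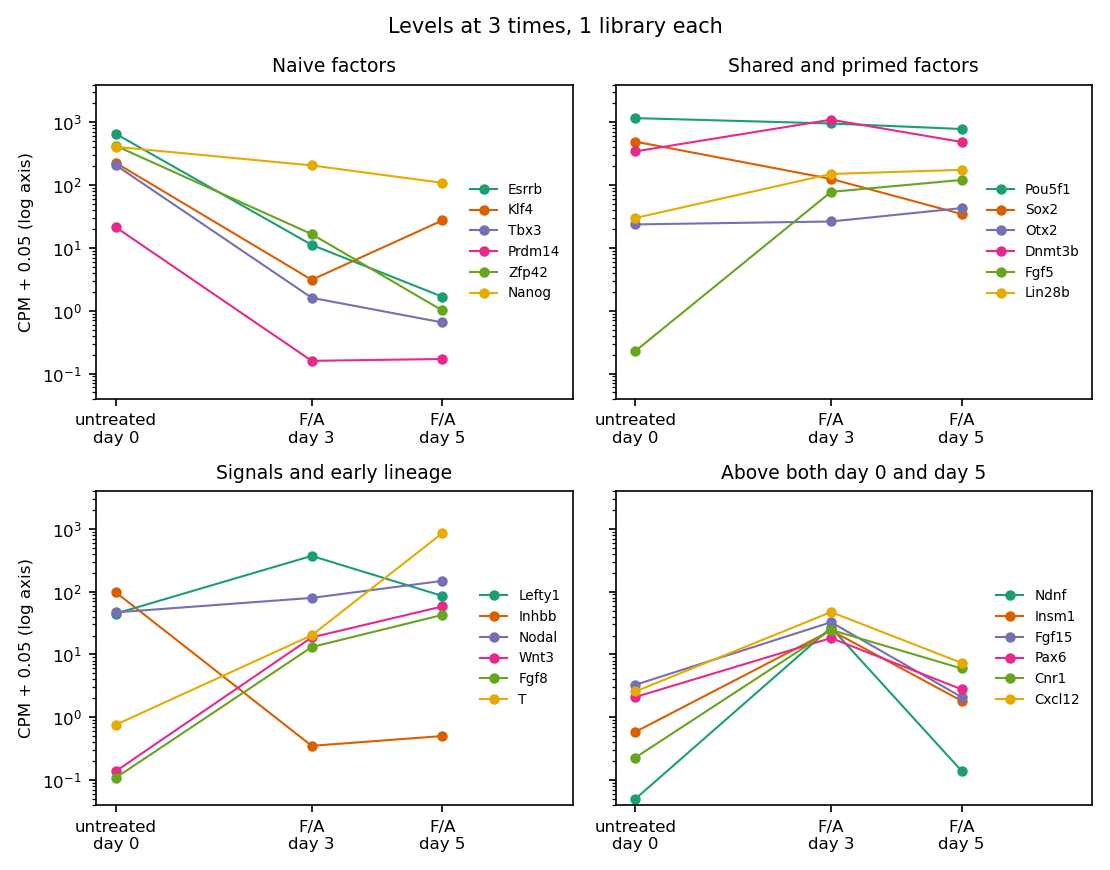
Levels of 24 genes at untreated day 0 and after 3 and 5 days of F/A (1 library each) as CPM plus 0.05 on a log axis, in 4 groups of 6. Esrrb and Tbx3 are lower at each later time, and T reaches 848 CPM only at day 5. The last group was picked for standing above both other times at day 3.

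Germline genes that DNA methylation silences in the body lay on both sides of their starting level. Of 25 measured, 13 were lower, 6 higher and 6 within 2-fold, with a median log2 ratio of -1.10. Among the lower were Stra8, Dazl, an RNA-binding protein of germ cells, with 13.6 CPM at F/A day 3 and 144 CPM at untreated day 0 (-3.40, -3.53 to -3.27), the meiotic cohesin Smc1b with 4.18 against 43.6 CPM (-3.38), and Rpl39l, a testis ribosomal protein gene, with 7.81 against 113 CPM (-3.86). The higher were Ddx4, Brdt, Sycp2, Taf7l, Tdrkh and Tdrd1. Ddx4 (ENSMUSG00000021758), the vasa helicase, had 3391 counts against 1334, or 92.6 against 39.5 CPM (1.23, 1.14 to 1.32). Taf7l, a testis variant of a general transcription factor subunit, had 22.8 against 6.58 CPM (1.79, 1.58 to 2.01), and Tdrd1, a Tudor protein of the piRNA pathway, 15.8 against 2.61 CPM (2.60, 2.27 to 2.94). Mael (27.1 against 30.8 CPM) and Sycp1 (23.3 against 30.8 CPM) stayed near their starting level. Tuba3a and Tuba3b are near-identical copies between which reads may have been split.

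At F/A day 5, all 25 members stood below their day 3 level, 24 of them more than 2-fold below it, and 21 had under 1 CPM, compared with 1 of 25 at day 3. Tdrkh was the exception, at 13.0 CPM after 14.8 CPM at day 3. Taf7l stood at 0.241 CPM and Ddx4 at 3.70 CPM. In experiment B, where 23 were tested, 18 fell and 1, Tdrkh, rose. Ddx4 fell there with 4.18 and 4.20 CPM in F/A against 22.85 and 22.96 CPM in VitC/LIF (-2.45, SE 0.21, adjusted p = 3.66e-05). Of the 6 genes that were higher at day 3, 3 fell in experiment B, 1 rose and 2 were not called.

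The promoters of both groups are shown for the letters CACGTG, an E-box, searched for in the 300 bases around the start sites. The search was made after the values had been seen, as 1 of 12 motifs on 8 lists. The E-box, capitals below, stood in 7.15% of 32851 mouse promoters of this length and in 11 of the 26 germline promoters that had a record. It was in 4 of 6 promoters of the higher genes, 3 of 12 of the lower and 4 of 5 of those within 2-fold. A match is a description of the letters and not a bound site. The sequences run from 250 bases before the start to 50 after it (RefSeq, build GRCm38.p6), first for the higher genes Taf7l (chrX:134476441-134476740, minus strand) and Ddx4 (chr13:112652261-112652560, minus strand), then for the lower genes Dazl (chr17:50293571-50293870, minus strand) and Smc1b (chr15:85131908-85132207, minus strand).
Taf7l: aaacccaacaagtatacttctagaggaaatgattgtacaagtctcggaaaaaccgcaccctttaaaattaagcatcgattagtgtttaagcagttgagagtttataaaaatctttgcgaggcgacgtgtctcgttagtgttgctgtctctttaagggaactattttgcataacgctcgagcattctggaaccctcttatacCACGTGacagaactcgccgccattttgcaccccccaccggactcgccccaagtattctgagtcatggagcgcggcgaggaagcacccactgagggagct
Ddx4: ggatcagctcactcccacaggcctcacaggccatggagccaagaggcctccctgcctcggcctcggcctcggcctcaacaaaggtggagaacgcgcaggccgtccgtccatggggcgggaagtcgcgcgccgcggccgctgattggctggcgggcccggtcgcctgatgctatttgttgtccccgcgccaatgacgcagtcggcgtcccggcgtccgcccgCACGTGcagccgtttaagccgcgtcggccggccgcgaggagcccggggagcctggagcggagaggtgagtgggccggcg
Dazl: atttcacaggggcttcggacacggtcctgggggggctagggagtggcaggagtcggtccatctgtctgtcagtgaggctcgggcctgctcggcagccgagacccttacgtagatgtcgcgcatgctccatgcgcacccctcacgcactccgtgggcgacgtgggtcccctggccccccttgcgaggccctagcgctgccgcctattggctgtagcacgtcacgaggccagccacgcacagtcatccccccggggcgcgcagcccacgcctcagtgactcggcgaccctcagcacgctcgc
Smc1b: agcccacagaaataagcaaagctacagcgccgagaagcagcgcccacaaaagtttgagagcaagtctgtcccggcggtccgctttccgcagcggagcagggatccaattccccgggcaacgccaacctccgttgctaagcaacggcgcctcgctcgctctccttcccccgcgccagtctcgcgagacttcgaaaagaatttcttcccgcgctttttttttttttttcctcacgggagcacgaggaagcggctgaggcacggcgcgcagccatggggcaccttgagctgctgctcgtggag
The letters TCCCGC, the core of an E2F site, were in 1 of 6 promoters of the higher genes, 6 of 12 of the lower and 4 of 5 of those within 2-fold. They were in 11 of the 26 germline promoters and in 20.0% of all promoters.

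**Figure D4:**
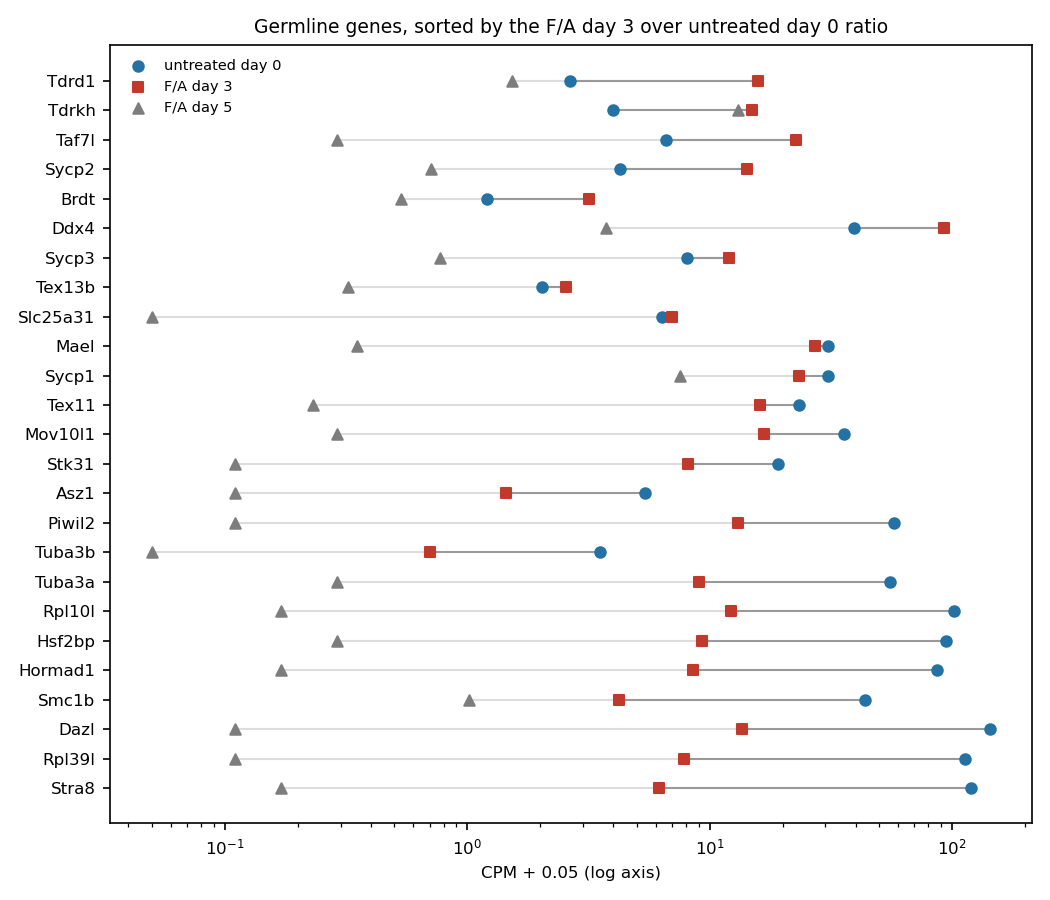
Levels of the 25 measured germline genes as CPM plus 0.05 on a log axis at untreated day 0 and after 3 and 5 days of F/A (1 library each), sorted by the ratio of day 3 over day 0. Genes from Stra8 up to Mov10l1 sit lower at day 3 than at day 0, the 6 at the top sit higher, and every gene except Tdrkh has its lowest point at day 5.

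Of 14 genes of DNA methylation, 4 were lower and 2 higher. The demethylase genes Tet1 and Tet2 were lower. Tet2 had 21.1 CPM at F/A day 3 and 264 CPM at untreated day 0 (-3.64, -3.75 to -3.54), and Tet1 had 430 against 999 CPM (-1.22). Tet3 was higher, with 28.2 against 6.76 CPM (2.06). Dnmt3l, the cofactor of the de novo enzymes, had 81.4 against 253 CPM (-1.64), and 0.391 CPM at F/A day 5. Zfp57, which protects imprints, had 58.0 against 456 CPM (-2.97). The maintenance genes Dnmt1 (495 against 664 CPM) and Uhrf1 (314 against 520 CPM) stayed within 2-fold. No methylation data were used here.

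Subunits of polycomb repressive complex 2, which writes methylated lysine 27 of histone H3, were lower or level, with 5 of 12 past 2-fold, none higher and a median of -0.83. The core subunits Eed (98.5 against 264 CPM, -1.42) and Suz12 (186 against 394 CPM, -1.08) and the cofactors Jarid2 (214 against 564 CPM, -1.40), Mtf2 (-1.17) and Epop (-1.73) were the 5. The catalytic subunit gene Ezh2 had 169 against 220 CPM (-0.38). All 5 also fell in experiment B.

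The Zscan4 genes, which a small share of embryonic stem cells express together with other genes of the 2-cell embryo, were higher at day 3. Zscan4d had 512 counts at F/A day 3 and 95 at untreated day 0 (2.31, 1.99 to 2.64), Zscan4f 332 against 47 (2.70) and Zscan4c 248 against 68 (1.75). At F/A day 5 none exceeded 0.0602 CPM. In experiment B all 3 fell, Zscan4d with 0 and 0.05 CPM in F/A against 4.47 and 3.01 CPM in VitC/LIF. These genes are near-identical copies, and 71.6% of the estimated count of Zscan4d in experiment B, 34.8% of Zscan4c and 14.0% of Zscan4f, came from reads unique to the gene. The split between them is therefore uncertain. Of the 11 genes on the list of the 2-cell state, 6 were not matched to an identifier here, and Zfp352 (49 counts against 18) and Tdpoz4 (38 against 4) stayed under a mean of 1 CPM.

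Imprinted genes, expressed from 1 parental allele, were mostly higher. Of 25 measured, 16 were higher and 4 lower, with a median of 1.47. Igf2, the growth factor gene, had 13.3 CPM at F/A day 3 and 1.07 CPM at untreated day 0 (3.65), Magel2 12.3 against 0.948 CPM (3.69) and Ndn 20.2 against 2.19 CPM (3.20). The long noncoding RNA Meg3, whose silencing is a known defect of cultured stem cells, had 613 against 139 CPM (2.14). Peg3 had 183 against 40.4 CPM, and Mest 205 against 30.6 CPM. The lower ones were Slc22a18 (-3.56), Usp29 (-2.52), Slc38a4 (-1.14) and H19 (-1.11). Igf2 and H19, neighbours that share an imprinting control region, lay on opposite sides. In experiment B 12 rose and 6 fell, where 27.4% of all genes in both comparisons rose and 26.4% fell. Of the 16 higher genes 11 rose, beside 73.2% of all shared genes that were higher at day 3. Gnas and the antisense Nespas overlap, and without a stated strand setting their reads cannot be told apart.

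Targets of p53 were higher in 10 of 21 cases and lower in 1, with a median of 0.99. Pmaip1 (Noxa), an inducer of cell death, had 394 CPM at F/A day 3 and 38.7 CPM at untreated day 0 (3.34, 3.26 to 3.43), and the cell cycle inhibitor gene Cdkn1a (p21) had 119 against 29.4 CPM (2.02, 1.92 to 2.12). Btg2 (115 against 14.5 CPM), Plk2 (107 against 12.8 CPM) and Ccng1 (711 against 166 CPM) were also higher. Bax (189 against 172 CPM) and Gtse1 (199 against 189 CPM) were level, and Gdf15 was the 1 lower gene (-2.04). All 10 higher genes rose in experiment B.

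Among regulators of the G1 phase, Ccnd2 (cyclin D2) had 111 CPM at F/A day 3 and 8.27 CPM at untreated day 0 (3.74, 3.57 to 3.92), whereas Ccnd3 (cyclin D3) had 43.4 against 271 CPM (-2.64, -2.72 to -2.56). Their kinase gene Cdk4 was level at 518 against 495 CPM. The imprinted inhibitor gene Cdkn1c (p57) had 62.1 against 10.5 CPM (2.57), although it fell in experiment B (-0.46, SE 0.15, adjusted p = 0.0309). Of 9 measured genes known as targets of the shared microRNA seed, 4 were higher, Lefty1, Cdkn1a, the Hippo kinase gene Lats2 (11.2 against 3.38 CPM, 1.73) among them, and Rhoc was lower (-1.11).

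Genes of MHC class I antigen presentation were higher in 6 of 11 cases at day 3 and lower in none, with a median of 1.30. The peptide transporter gene Tap1 had 23.1 against 1.81 CPM at untreated day 0 (3.68, 3.30 to 4.08), the trimming enzyme gene Erap1 14.3 against 2.87 CPM (2.31), and B2m 15.8 against 6.43 CPM (1.30). H2-D1 had 20.4 against 7.02 CPM and H2-K1 41.3 against 23.4 CPM (0.82), though reads of H2 genes can be shared between copies. In experiment B 8 of the 11 rose and none fell.

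Genes of the contractile actin cytoskeleton were mostly higher. Of 22 targets of SRF and YAP, the factors that respond to actin tension, 16 were higher and none lower, with a median of 2.09. Tagln, an actin-binding protein of smooth muscle, had 120 CPM at F/A day 3 and 2.84 CPM at untreated day 0 (5.40, 5.11 to 5.71). Thbs1, a matrix glycoprotein, had 97.8 against 3.44 CPM (4.83), Cnn1 22.5 against 0.948 CPM (4.57) and Tpm1 377 against 56.1 CPM (2.75). The matricellular YAP targets Ccn1 (113 against 17.8 CPM) and Ccn2 (115 against 21.7 CPM) were also higher, while Actn1 (140 against 252 CPM, -0.85) was not. In experiment B 15 rose and 3 fell. The 3 that fell, Acta1, Acta2 and Myl9, were among those higher at day 3, and Tagln, with 0.14 and adjusted p = 0.515, was not called there.

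Epithelial genes were higher in 11 of 24 cases and lower in 3. Cdh1 (E-cadherin) had 636 CPM at F/A day 3 and 510 CPM at untreated day 0 (0.32), Krt8 33.4 against 3.14 CPM (3.41) and Cldn7 38.1 against 6.93 CPM (2.46), whereas the desmosomal Dsg2 was lower (-1.61). Mesenchymal genes were mixed, 6 of 14 higher and 5 lower. Twist1 (6.39 against 0.593 CPM, 3.43) and Zeb2 (10.3 against 1.33 CPM, 2.94) were higher beside Cdh2. Vim had 120 against 159 CPM (-0.40) and stood at 1196 CPM at F/A day 5. Snai1, Snai2, Twist2, Zeb1, Prrx1 and Mmp9 stayed under a mean of 1 CPM. In experiment B 9 of the 14 mesenchymal genes rose and 1 fell. Of the 5 that were lower at day 3, 1 fell there and 1 rose.

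Matrix genes included several that were much lower. Of 23, 8 were lower and 6 higher. The basement membrane genes Nid1 (17.9 CPM at F/A day 3 against 222 CPM at untreated day 0, -3.63, -3.75 to -3.52) and Lama1 (11.4 against 101 CPM, -3.14, -3.29 to -2.99) were lower, while Lamb1 (245 against 83.6 CPM, 1.55) and the proteoglycan gene Vcan (138 against 21.5 CPM, 2.68) were higher. Fn1, fibronectin, had 198 against 1109 CPM (-2.49), and 1128 CPM at F/A day 5. In experiment B 12 of the 23 rose and 3 fell. Of the 8 lower genes only Nid1 fell there and 1 rose, while Lama1 was not called.

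Most metabolic genes lay within 2-fold, with the sterol pathway above its starting level. Of 23 genes of cholesterol synthesis and uptake, 8 were higher and none lower, with a median of 0.75. The sterol carrier gene Stard4 had 76.8 against 28.0 CPM (1.45) and the isomerase gene Idi1 128 against 49.0 CPM (1.38). All 23 rose in experiment B. Fatty acid synthesis had 5 of 15 higher, led by the desaturase gene Fads2 (110 against 30.8 CPM, 1.84), with Fasn at 984 against 613 CPM (0.68), and 1 lower.

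Of 21 glycolytic genes 17 lay within 2-fold, with Gapdh at 2422 against 2360 CPM. The exceptions were Pfkp (33.4 against 695 CPM, -4.38, -4.46 to -4.30), Hk1 (13.3 against 72.2 CPM, -2.44) and Aldoc (9.42 against 18.8 CPM), which were lower, and the lactate exporter Slc16a3 (180 against 62.1 CPM, 1.53), which was higher. Of 27 nuclear genes of oxidative phosphorylation, 25 lay within 2-fold with a median of -0.32, and Cox7a1 (-1.79) and Cox5a (-1.27) were lower. All 12 measured genes of the mitochondrial genome lay within 2-fold, from -0.20 to 0.47.

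Stress and nutrient lists gave no common direction. Among 31 genes of the ATF4 amino acid response 3 were higher and 5 lower, with the cystine transporter Slc7a11 at 17.1 against 4.50 CPM (1.92) and Shmt2 at 155 against 399 CPM (-1.36). Among 27 hypoxia genes 4 were higher and 3 lower, and among 18 NRF2 genes 3 were higher, led by Slc7a11, and 1 lower. Of 15 metallothionein and zinc transporter genes, 5 were higher, such as Slc39a8 (4.01 against 0.237 CPM, 4.08), and 2 lower, Slc30a2 (-3.39) and Slc39a4 (-2.23). Of 13 iron genes 2 were higher and 2 lower. The iron exporter gene Slc40a1 had 17.3 against 1.60 CPM (3.43, 3.03 to 3.86), and the uptake receptor gene Tfrc 402 against 516 CPM (-0.36).

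Markers of other cell types were examined over their whole lists, including members under 1 CPM. The 20 fibroblast markers, which would report feeder cells, summed to 506 CPM at F/A day 3 and 1321 CPM at untreated day 0, of which Fn1 made up 198 and 1109 CPM. Of 16 measured 5 were higher and 6 lower, while Lum, Postn, Fap and S100a4 stayed under a mean of 1 CPM. The higher ones included Dcn, with 162 counts against 0, Tagln (5.40) and Acta2 (2.68). In experiment B 7 of the 16 rose and 1 fell, and of the 6 lower genes none fell and 1 rose. Among the collagen genes on the list, Col1a1 had 1.23 against 7.88 CPM, Col3a1 0.491 against 2.49 CPM, Col1a2 7.15 against 8.27 CPM and Col5a1 15.0 against 8.95 CPM. Primitive endoderm markers summed to 969 against 1159 CPM. Of 11 measured 6 were higher and 1, Lama1, lower, with a median log2 ratio of 1.15, and 7 rose in experiment B. The higher ones included Fst, the endocytic adaptor gene Dab2 (8.32 against 0.919 CPM, 3.18) and Gata4 (2.32 against 0.533 CPM, 2.12), while Sox17, Gata6, Foxa2, Sox7 and Afp did not exceed 1.20 CPM in either library. Trophectoderm markers summed to 103 against 115 CPM, with Cdx2, Elf5, Hand1, Gata3, Esx1 and Tpbpa under a mean of 1 CPM. Of 9 measured 3 were higher, Eomes and the keratin genes Krt8 (3.41) and Krt18 (2.28), and all 3 rose in experiment B. Tfap2c, with 5.10 against 75.4 CPM (-3.89), and Plet1, with 0.409 against 2.90 CPM (-2.83), were lower.

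Many markers of neuroectoderm and mesoderm stayed under the level needed to be counted. Of 7 measured neuroectoderm markers 6 were higher, 2 of these from under 1 CPM at untreated day 0, with Nes at 115 against 5.60 CPM (4.36), Map2 at 23.1 against 2.84 CPM (3.02) and Zic1 at 3.19 against 0.178 CPM (4.17), and Tubb3 was lower (-1.44). Their sum was 220 CPM at F/A day 3 and 89.5 CPM at untreated day 0, while Hes5, Lmx1a, Neurog2, Pax2 and Pax3 stayed under a mean of 1 CPM. Mesoderm markers summed to 31.2 against 4.68 CPM, with Hoxb1 at 17.8 against 0 CPM. All 5 measured of the 15 had under 1 CPM at untreated day 0 and were therefore counted only through their level at F/A day 3. Kdr had 126 counts against 0 and Tal1 97 against 22, while Pdgfra lay within 2-fold (0.32, -0.38 to 1.04). Whether a minority of differentiating cells carries these markers was not tested.

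Most genes past 2-fold at day 3 had the same direction in the replicated comparison. In experiment B, 4296 of 16033 genes (26.8%) rose in F/A over VitC/LIF and 3804 (23.7%) fell. Of the genes in both comparisons, 2053 were at least 2-fold higher at day 3. Of these, 1502 (73.2%) rose in experiment B, 61 (2.97%) fell and 490 were not called, where 27.4% of all 13228 shared genes rose. Of 1613 that were lower at day 3, 1112 (68.9%) fell, 61 (3.78%) rose and 440 were not called, where 26.4% of all shared genes fell. The genes that were past 2-fold at day 3 made up 41.4% of the 3629 that rose and 31.8% of the 3498 that fell. Across 13181 genes with counts in both libraries, the day 3 ratio and the experiment B fold change had a Pearson correlation of 0.70 and a Spearman correlation of 0.65, as a description, since genes are not independent replicates and the experiments share a cell line.

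**Figure D5:**
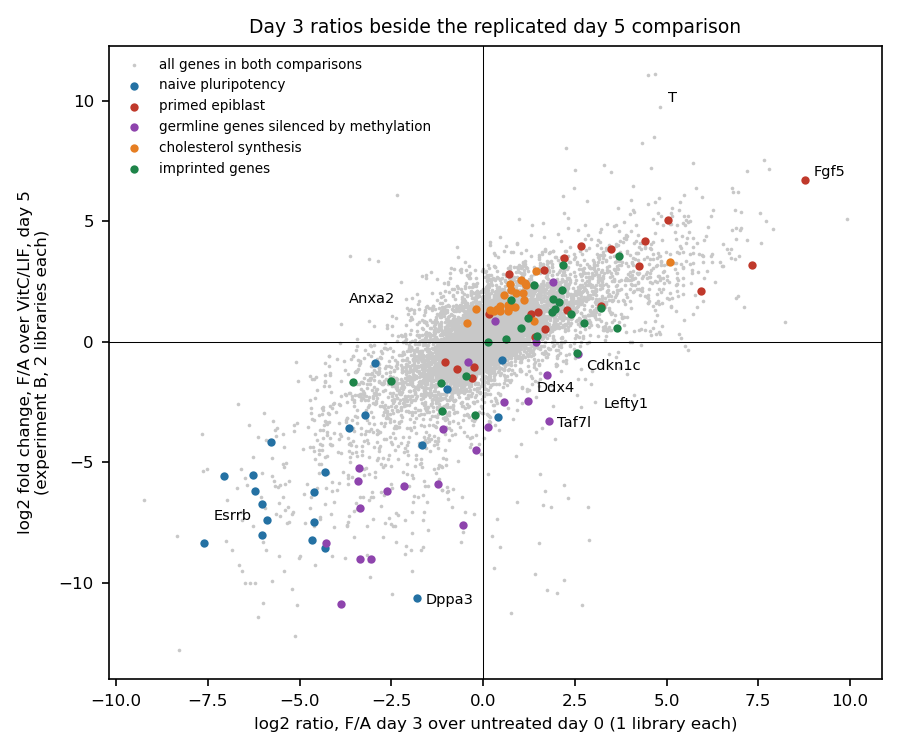
Each point is a gene at its log2 ratio of F/A day 3 over untreated day 0 (1 library each) and its log2 fold change of F/A over VitC/LIF after 5 days in experiment B (2 libraries each), with 5 lists in colour. Most naive genes lie low on both axes, apart from Tdgf1 and Gbx2 to the right of 0, and most primed genes lie high on both, apart from Etv4, Etv5, Foxd3 and Dnmt3a, which lie low on both, whereas Lefty1, Taf7l and Ddx4 lie to the right of 0 and below it.

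Among genes of at least 16 CPM that went opposite ways, 16 were higher at day 3 and fell in experiment B. Besides Lefty1, Taf7l, Ddx4 and Cdkn1c they included Meioc, a meiotic gene, with 45.4 CPM at F/A day 3 and 16.1 CPM at untreated day 0 (1.49), which fell by 1.66 on the log2 scale in experiment B (adjusted p = 7.6e-05). The metallothionein gene Mt2 (152 against 64.3 CPM, 1.24) and the stress gene Gadd45g (16.1 against 4.30 CPM, 1.91) were others. In the other direction, 22 genes were lower at day 3 and rose in experiment B. Anxa2, a membrane-binding protein, had 9.17 CPM at F/A day 3 and 38.8 CPM at untreated day 0 (-2.08), rose by 1.42 in experiment B (adjusted p = 0.000211), and stood at 109 CPM at F/A day 5. The giant scaffold gene Ahnak had 46.1 against 103 CPM (-1.16) and 515 CPM at F/A day 5. Gli2, of the Hedgehog pathway, had 22.2 against 86.2 CPM (-1.96) and Notch1 18.6 against 41.0 CPM (-1.14).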

How the data were processed

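Raw counts per Ensembl gene were deposited by the authors for the untreated day 0, F/A day 3, F/A day 5 and L-Pro day 5 libraries, with the tools CASAVA, HTSeq 0.6.1p1 and TopHat2 2.0.13 and build mm9 (NCBIM37) named in the submitters' processing notes, which do not give a strand setting. Totals ran from 33162689 to 39711061. From these counts, CPM were computed with TMM factors over the 4 libraries (edgeR 4.0.16, R 4.3.3), followed by the log2 ratio and its 95% interval (Clopper-Pearson on the share of counts in F/A day 3). A gene with 0 counts is given as a bound against a floor of 3 counts per library. Intervals and floors cover counting error only. CPM do not account for gene length, so levels are compared within a gene.

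For experiment B the authors deposited natural log expression values per gene with unique hits and effective length, per the file headers. Estimated counts were computed back from them, rounded, and tested in 1 edgeR quasi-likelihood model of all 10 libraries (16033 genes after filterByExpr, TMM, Benjamini-Hochberg adjusted p under 0.05, biological coefficient of variation 0.238, 5 residual degrees of freedom). SE was computed as the size of the log2 fold change divided by the root of its F statistic. Mapped fragments ran from 17778399 to 26354444, except 6937945 in F/A replicate 1. Unique hits were whole-number counts per the file headers. The fit was tested on simulated data.

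The authors' normalized table, deposited as scores without a stated method, served as an alternative, and 2 of its columns of per-sample values were not used. Symbols came from GENCODE vM21. Genes were named by a rule: the 10 highest and 10 lowest ratios among genes with a symbol and at least 16 CPM in the higher library, up to 4 members past 2-fold and 2 within it from each of 39 lists (669 genes), and a panel. Other list members were picked for their role after their values were seen, and some list members are not reported here by name. The members and lists were chosen with earlier results of these data known. The motifs searched on both strands were an E-box (CACGTG), an E2F6 type (TCCCGC), a STAT site (TTCCNGGAA) and its loose form (TTCNNNGAA), a sterol element (TCACCCCA), a metal response core (TGCNCNC), a FOXH1 site (AATNCACA), a SMAD site (GTCTAGAC), a CRE (TGACGTCA), the CArG box in a strict and a loose form, and the p53 half-site. Loose forms also match wherever their strict forms do.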

Additional observations from a re-analysis of the deposited data

How the results depend on the processing

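The 3800 genes past 2-fold at F/A day 3 (2101 higher, 1699 lower) became 3810 with total counts (2218 and 1592), 3793 with DESeq2 size factors (2046 and 1747) and 3809 in the authors' normalized table (2213 and 1596). They were 2947 (1620 and 1327) where the whole interval had to pass, 2235 (1151 and 1084) at a mean of at least 5 CPM, 1705 (980 and 725) at 4-fold, and 9689 (5361 and 4328) with no filter and a prior count of 1. All 39 list medians moved by less than 0.1 on the log2 scale under total counts, DESeq2 size factors and the authors' table. Of 212 named genes, the log2 ratio left its counting interval in 52 under total counts, 54 in the authors' table and 13 under DESeq2 size factors, none with a change of sign past 2-fold. In experiment B the 8100 called genes were 8108 with DESeq2 size factors in edgeR, 7978 without a filter, 8503 with unique hits only, 7440 over FBS/LIF and 8031 with DESeq2. Leaving out 1 library gave 5239 to 8973 calls, the fewest (5239) without VitC/LIF replicate 1. The lone sample is then assumed to vary like the other groups. With the replicate number as a block, 7987 genes were called. Same-numbered F/A and VitC/LIF libraries deviated together (r = 0.22 across genes), but with 2 pairs this does not show that the numbers pair the samples. Over FBS/LIF in place of VitC/LIF, Fgf15 was -1.25 (adjusted p = 0.00925), Col1a1 1.30 (adjusted p = 0.032) and Ldha -0.37 (adjusted p = 0.0672), each with the sign turned from 0.08, -0.24 and 0.68 over VitC/LIF, and the cause was not tested. A limit is 1 library per group: counting intervals cover reads only, and the spread between cultures at day 0 and day 3 is unknown.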

Other observations

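The L-Pro day 5 library, from cells kept 5 days in serum, LIF and L-proline at 1 mM and positive for both reporters, gives levels for several genes of the day 3 comparison without a role in it. Esrrb stood there at 23.7 CPM, Klf4 at 25.8 CPM and Zfp42 at 20.1 CPM. Fgf5 had 20.0 CPM, T 53.1 CPM and Tagln 892 CPM. Hoxb1 had 0.333 CPM and Meis2 1.67 CPM, both below their F/A day 5 levels of 5.32 and 27.0 CPM.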
